A study of Mus musculus with 13 samples.

Results

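Nr5a1, Wt1, Dmrt1, Gata4 and Sox9 are the 5 transcription factors that had been introduced as transgenes into mouse fibroblasts to make induced embryonic Sertoli cells (ieSC). All features of the array's value table that the platform annotation assigns to these genes, older symbols included, were taken, without regard to their signal. They were 14 features of 5 genes, of 31465 features and 20738 genes named on the array. Nr5a1, Wt1, Dmrt1 and Gata4 had 1 feature each and Sox9 had 10. The symbol Sf1, an old name of Nr5a1, belonged on this array to 3 features of splicing factor 1 by their transcript accessions, and these were not taken.

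RNA was measured on 1-colour Agilent arrays with Cy3 label, 13 arrays in 7 groups. Mouse embryonic fibroblasts (MEF, 2 arrays) carried an empty vector and tail tip fibroblasts (TTF, 2 arrays) carried tdTomato, a red fluorescent protein; both are labelled wild type. Induced cells derived from MEF (MEF-ieSC, 1 array) or from TTF (TTF-ieSC, 2 arrays) carried Nr5a1, Wt1, Dmrt1, Gata4 and Sox9 together and are labelled as transdifferentiated. The native groups carried no transgene and are labelled wild type: whole male gonads at 14.5 days post coitum (dpc), immature Sertoli cells of the testis at 19 dpc and mature Sertoli cells of mice 8 weeks old, with 2 arrays each. The fibroblasts had been grown for 3 passages in 10% serum. The induced cells had been grown for 6 months in 2% serum with doxycycline, given in the labels as 2 mg/ml. Immature and mature Sertoli cells had been cultured for 3 and 7 days in 10% serum, and the gonads had not been cultured. The promoter of the transgenes, the number of clones, the strain and any pooling of animals are not given in the labels. The design names duplicates throughout; a second MEF-ieSC sample was not analysed here. The factors and the culture differ together between fibroblasts and induced cells, and their effects cannot be told apart.

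Sertoli cells are the supporting cells of the testis tubule, which nurse the germ cells and direct the fetal gonad towards a testis. Wt1, a zinc finger protein, Gata4, a zinc finger protein that binds GATA sequences, and Nr5a1 (steroidogenic factor 1, SF-1), an orphan nuclear receptor, are needed to form the early gonad before its sex is set. Sox9, an HMG box protein, is switched on in pre-Sertoli cells by Sry with SF-1 and then keeps itself active, and Dmrt1, a DM domain protein, holds the male fate of Sertoli cells after birth. Each also works elsewhere: Nr5a1 in steroid-making Leydig and adrenal cells, Wt1 in podocytes and mesothelium, Gata4 in the heart, Sox9 in cartilage and Dmrt1 in germ cells.

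The values below are log2 signals as deposited, on which 1 unit is a doubling of signal. Every array had the same median, 7.49, and the same 75th percentile, 10.47. Differences are given as log2 difference ± SE with the adjusted p of limma's moderated test over 25285 features, called at an adjusted p under 0.05. Signals of different genes come from different features and are not set against each other. Which stretch of a transcript each feature reads is not given, so RNA of a transgene and of the cell's own gene cannot be told apart. Separate animals or cultures are not stated, so the p-values rest on the spread among these arrays alone, and that spread may be technical.

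Marker genes were read first, as a check of the labels. Mean log2 signal over 16 Sertoli markers was 8.87 to 9.43 in the fibroblast arrays, 12.25 to 12.48 in the induced arrays and 13.45 to 14.58 in the native arrays. Of these 16, 13 were above the array median on every array of each induced group, and Amh, Fshr and Aard were not. The count was 12 in MEF and 10 in TTF. Gonad had all 16 above the median, whereas Amh was not above it in mature Sertoli cells, nor Cst9 in immature Sertoli cells. Markers of other cell types were present in the native groups. For 6 Leydig and steroid cell markers, the mean was 14.89 to 14.90 in gonad, 11.90 to 11.98 in immature and 11.46 to 11.51 in mature Sertoli cultures, and 7.73 to 8.24 in induced cells. For 10 germ cell markers it was 12.69 to 12.70 in gonad, 10.43 to 10.47 in immature and 9.34 to 9.55 in mature cultures. In induced cells it was 6.64 to 6.99. Ddx4, Dazl, Dppa3, Pou5f1, Mael and Sycp3 were not above the median on every array of either induced group. Dnd1, Nanos2 and Tdrd1 were above it on every induced array, and Zbtb16 on the MEF-ieSC array. Nanos2 and Tdrd1 were not above it on every MEF array, nor on every TTF array. For 7 peritubular and smooth muscle markers the mean was 15.73 to 15.79 in immature and 16.36 to 16.38 in mature cultures. It was 15.99 to 16.01 in MEF, 13.92 to 13.96 in TTF, 12.38 to 12.46 in gonad and 10.10 to 10.51 in induced cells. This last list was therefore not particular to the native groups. In such bulk samples a lower signal can mean fewer cells of a type or less RNA per cell, and these cannot be told apart.

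Wt1 was the only member whose induced cells matched or exceeded native cells. Its log2 signal was 6.77 and 6.85 on the TTF arrays, below the array median, and 11.72 and 11.83 on the MEF arrays. It was 16.48 and 16.49 on the TTF-ieSC arrays and 16.58 on the MEF-ieSC array. The native arrays gave 15.86 and 15.88 in gonad, 15.61 and 15.67 in immature and 15.36 and 15.49 in mature Sertoli cells. All 3 induced arrays thus lay above all 6 native arrays.

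Wt1 rose by 9.67 ± 0.06 in TTF-ieSC against TTF (adjusted p = 1.03e-11) and by 4.81 ± 0.08 in MEF-ieSC against MEF (adjusted p = 6.39e-10). Of all features tested, 0.01% rose as far in the first comparison and 0.74% in the second. The start in TTF was dim, at 37.8 and 39.4 in percent of array features below it, so the size of that rise depends on the background of the array, which is unknown. The rises differed by 4.87 ± 0.10 (adjusted p = 2.77e-08), while the 2 starting cells differed by -4.96 ± 0.06 (TTF minus MEF) and the 2 end points by -0.10 ± 0.08 (TTF-ieSC minus MEF-ieSC, adjusted p = 0.506). The 95% interval of the difference between the end points was -0.28 to 0.09. TTF-ieSC exceeded gonad, the next group in the order, by 0.61 ± 0.06 (adjusted p = 2.98e-05). Within the native groups the steps were 0.23 ± 0.06 from immature Sertoli cells up to gonad (adjusted p = 0.0119) and 0.22 ± 0.06 from mature up to immature Sertoli cells (adjusted p = 0.0164). The first step was lost without gonad replicate 2 (adjusted p = 0.0551) or immature replicate 1 (adjusted p = 0.0584), and the second without immature replicate 2 (adjusted p = 0.0765) or mature replicate 1 (adjusted p = 0.120).

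**Figure D1:**
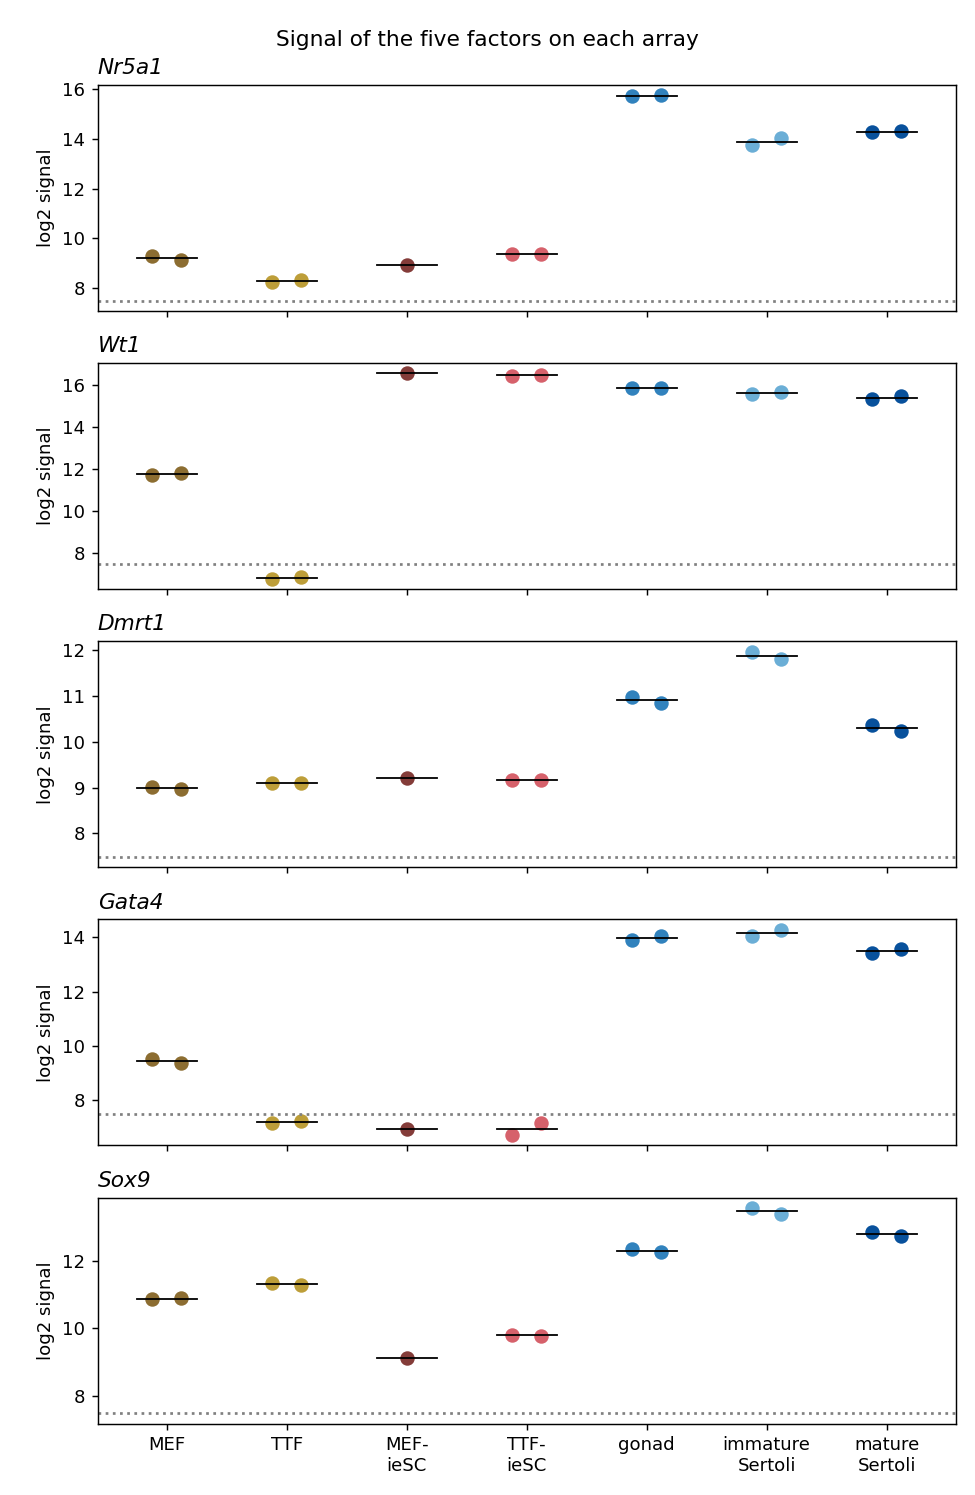
Log2 signal of the 5 factors on each of the 13 arrays, 1 panel a gene (Sox9 by its brightest feature); the horizontal axis gives the group, points are arrays, bars group means and the dotted line the array median of 7.49. Each panel has its own vertical scale. The induced cells lie above all native arrays for Wt1 and below all of them for the other 4 genes.

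Wt1 has a neighbour, Wt1os, a long noncoding RNA gene named as its opposite strand gene, which lies next to it on chromosome 2 and does not overlap it in the gene table used for names. Its log2 signal was 5.68 and 6.15 on the TTF arrays, 6.54 and 6.68 on the MEF arrays, 12.41 and 12.35 on the TTF-ieSC arrays and 12.21 on the MEF-ieSC array. In native cells it was 9.23 and 9.15 in gonad, 8.55 and 8.50 in immature and 9.07 and 9.04 in mature Sertoli cells. The fibroblast arrays were below the array median and the induced arrays were above every native array. Wt1os rose by 6.47 in TTF-ieSC against TTF (adjusted p = 7.37e-10) and by 5.60 in MEF-ieSC against MEF (adjusted p = 1.13e-08), and its other feature rose by 3.29 and 3.90. It exceeded immature Sertoli cells by 3.85 in TTF-ieSC (adjusted p = 2.38e-08) and by 3.69 in MEF-ieSC (adjusted p = 1.55e-07). MEF had more Wt1 than TTF by 4.96, whereas for Wt1os TTF minus MEF was -0.70 (adjusted p = 0.00164), with both levels dim. Them7, on the other side of Wt1, rose by 3.51 from a mean of 4.12 in TTF (adjusted p = 0.000188), with TTF arrays at 3.21 and 5.03. Its difference in MEF-ieSC against MEF was 0.585 and was not called (adjusted p = 0.413).

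**Figure D2:**
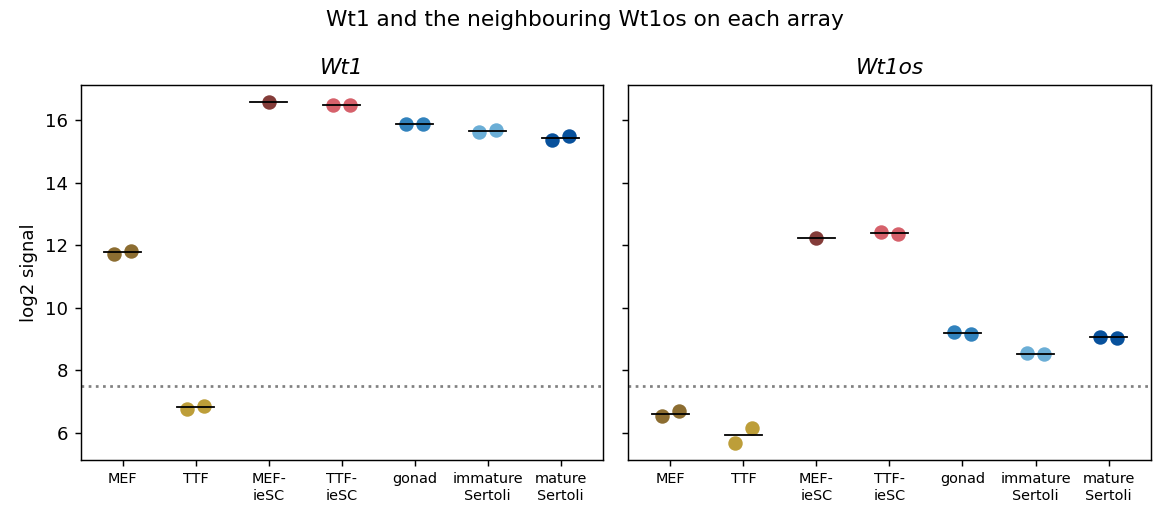
Log2 signal of Wt1 (left) and of the neighbouring noncoding gene Wt1os (right, brighter of its 2 features) on each array, by group; points are arrays, bars group means and the dotted line the array median. Both are highest in the 3 induced arrays, and MEF stands above the median for Wt1 but not for Wt1os.

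Nr5a1 remained far below native cells after induction. Its log2 signal was 9.26 and 9.12 in MEF, 8.25 and 8.31 in TTF, 8.94 in MEF-ieSC and 9.37 and 9.36 in TTF-ieSC. It was 15.71 and 15.76 in gonad, 13.77 and 14.02 in immature and 14.26 and 14.33 in mature Sertoli cells. No induced or fibroblast array came within 4 units of a native array.

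Nr5a1 rose by 1.09 ± 0.09 in TTF-ieSC against TTF (adjusted p = 4.37e-06), a rise that 15.3% of all features equalled or exceeded. In MEF-ieSC against MEF the difference was -0.26 ± 0.11 (adjusted p = 0.0566). It passed the test without MEF replicate 2 (-0.33, adjusted p = 0.0408) or without either immature array (adjusted p = 0.0165). The difference between the inductions was 1.35 ± 0.14 (adjusted p = 7.01e-05). TTF started 0.91 below MEF (adjusted p = 2.34e-05), and TTF-ieSC ended above MEF-ieSC by 0.43 (adjusted p = 0.0313). That last call was lost when 1 TTF-ieSC array was left out (adjusted p = 0.0912 and 0.0890), or 1 gonad array (adjusted p = 0.0528 and 0.0527). The level in TTF-ieSC was not separated from that of MEF with the empty vector by the test (0.17 ± 0.09, adjusted p = 0.101). Against the lowest native group, immature Sertoli cells, TTF-ieSC was lower by -4.52 ± 0.09 (adjusted p = 8.64e-10) and MEF-ieSC by -4.96. Gonad exceeded mature Sertoli cells by 1.44 ± 0.09 (adjusted p = 7.10e-07), and mature exceeded immature cells by 0.40 ± 0.09 (adjusted p = 0.00313). The Leydig and germ cell markers given above differed between the native groups too, and their part in this order was not tested.

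Gata4 was low in all induced arrays. Its log2 signal was 9.50 and 9.36 in MEF, 7.16 and 7.22 in TTF, 6.92 in MEF-ieSC and 6.70 and 7.15 in TTF-ieSC. It was 13.91 and 14.03 in gonad, 14.04 and 14.28 in immature and 13.44 and 13.59 in mature Sertoli cells. The TTF and induced arrays were all below the array median, and the MEF-ieSC array lay between the TTF-ieSC arrays.

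Gata4 fell by 2.51 ± 0.18 in MEF-ieSC against MEF (adjusted p = 3.54e-06), and 5.92% of all features fell as far. In TTF-ieSC against TTF the difference was -0.27 ± 0.15 (adjusted p = 0.134), and it passed the test without TTF-ieSC replicate 2 (-0.49, adjusted p = 0.00862). The inductions differed by 2.24 ± 0.23 (adjusted p = 8.29e-05). TTF was below MEF by -2.24 ± 0.15 (adjusted p = 2.54e-06), and the difference between the induced groups was 0.00 with a 95% interval of -0.41 to 0.41. Below immature Sertoli cells, MEF-ieSC and TTF-ieSC both lay at -7.24. Immature Sertoli cells and gonad were not separated (0.19 ± 0.15, adjusted p = 0.274). Gonad exceeded mature Sertoli cells by 0.46 ± 0.15 (adjusted p = 0.0190), a call lost without gonad replicate 2 (adjusted p = 0.0928) or mature replicate 1 (adjusted p = 0.0964).

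Dmrt1 was nearly level across fibroblasts and induced cells. Its log2 signal was 9.01 and 8.97 in MEF, 9.09 and 9.11 in TTF, 9.21 in MEF-ieSC and 9.17 on both TTF-ieSC arrays. It was 10.97 and 10.84 in gonad, 11.96 and 11.79 in immature and 10.36 and 10.22 in mature Sertoli cells. The 7 fibroblast and induced arrays spanned 8.97 to 9.21, and all native arrays were higher.

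The Dmrt1 difference was 0.07 ± 0.08 in TTF-ieSC against TTF (95% interval -0.10 to 0.25, adjusted p = 0.413). In MEF-ieSC against MEF it was 0.22 ± 0.09 (adjusted p = 0.0619), which passed the test without either immature array (adjusted p = 0.0381). Of all features, 92.5% changed by as much or more in the first comparison and 75.7% in the second. Induced cells were below mature Sertoli cells, the lowest native group, by -1.12 ± 0.08 in TTF-ieSC and -1.08 ± 0.09 in MEF-ieSC (adjusted p = 1.03e-05). Immature Sertoli cells exceeded gonad by 0.98 ± 0.08 (adjusted p = 5.96e-06), and gonad exceeded mature Sertoli cells by 0.61 ± 0.08 (adjusted p = 8.74e-05). Germ cells also make Dmrt1. The mean over the 10 markers given above was highest in gonad. Stra8, a gene of germ cells entering meiosis, had a mean of 10.46 in gonad, 16.60 in immature and 12.64 in mature cultures, and Sohlh1, a transcription factor of spermatogonia, 9.67, 13.48 and 9.56. Both were highest in immature cultures, as Dmrt1 was. They stand in the Dmrt1 target list read below, not among the 10 markers, and were chosen after their values were seen. The part of germ cells in the Dmrt1 order was not tested.

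Sox9 fell in the induced cells. By its brightest feature, its log2 signal was 10.87 and 10.89 in MEF, 11.33 and 11.28 in TTF, 9.12 in MEF-ieSC and 9.79 on both TTF-ieSC arrays. It was 12.34 and 12.25 in gonad, 13.56 and 13.38 in immature and 12.84 and 12.74 in mature Sertoli cells. The induced arrays were the lowest of all 13, below both kinds of fibroblast that had received no factor.

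Sox9 fell by 1.52 ± 0.07 in TTF-ieSC against TTF (adjusted p = 1.19e-07) and by 1.76 ± 0.09 in MEF-ieSC against MEF (adjusted p = 2.79e-07). Of all features, 11.4% and 9.10% fell as far. Over the 10 features the differences were -1.52 to -1.27 and -1.76 to -1.41, and all passed the test. The inductions differed by 0.24 ± 0.11 (adjusted p = 0.0995), with 1 of 10 features called. TTF-ieSC was above MEF-ieSC by 0.67 ± 0.09 (adjusted p = 0.00167). Immature Sertoli cells exceeded mature cells by 0.68 ± 0.07 (adjusted p = 4.28e-05), mature cells exceeded gonad by 0.49 ± 0.07 (adjusted p = 0.000196), and gonad exceeded TTF by 0.99 ± 0.07 (adjusted p = 1.75e-06). Every step in the order of the 7 groups passed the test, and all 10 features gave the same order.

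The 10 Sox9 features were compared with each other. Their lowest pairwise Pearson correlation over the 13 arrays was 0.9952. On a single array their log2 signals spanned 0.13 to 0.58. They share the RNA of each array, so they are repeat readings and not replicates. Whether they carry the same sequence is not given, so their closeness does not show how far different features of a gene can differ. In TTF-ieSC against TTF, the 2 features of Col9a1 gave 6.79 and 0.40, and those of Fdx1 gave -0.29 and -0.41. No such comparison could be made for the members with 1 feature.

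**Figure D3:**
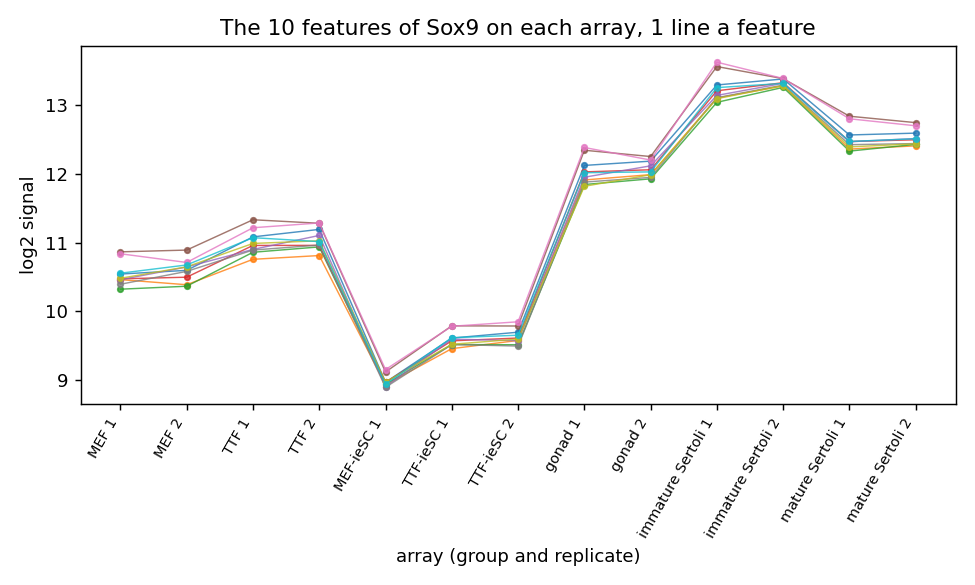
Log2 signal (vertical axis) of the 10 Sox9 features on each of the 13 arrays (horizontal axis), 1 line a feature; lines join the points of a feature and carry no order in time. All lines fall to the 3 induced arrays and rise to the native arrays, and the features span at most 0.58 on 1 array.

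Counted over all 14 features, 2 rose, 10 fell and 2 were not called in TTF-ieSC against TTF, where 74.4% of all features tested were called, 39.4% as higher and 35.0% as lower. In MEF-ieSC against MEF, 1 rose, 11 fell and 2 were not called, where 67.4% of all features were called, 34.0% as higher and 33.4% as lower. The falls are mostly the Sox9 features, so by gene 2 rose, 1 fell and 2 were not called in the first comparison, and 1 rose, 2 fell and 2 were not called in the second. The difference between the inductions was called for 4 of 14 features, against 53.1% of all features. In TTF against MEF, 10 member features were higher, all of Sox9, 3 were lower and 1 was not called (65.8% of all features called). Against each of the 3 native groups, Wt1 was higher and the other 13 features were lower in both kinds of induced cell. The overall shares called there were 76.3%, 79.3% and 79.0% for TTF-ieSC against immature Sertoli cells, mature Sertoli cells and gonad, and 70.3%, 74.5% and 74.1% for MEF-ieSC. With shares this high, a call by itself says little, and the sizes above carry the description.

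All 14 features were higher in immature Sertoli cells than in MEF (35.5% of all features), in gonad than in MEF (39.3%) and in mature Sertoli cells than in TTF (35.5%). By gene, 5 of 5 were higher in each, where 36.2%, 41.0% and 36.6% of all genes were. Within the native groups, 11 features were higher, 2 lower and 1 not called in immature Sertoli cells against gonad (69.6% of all features called). By gene, 2 were higher, 2 were lower and Gata4 was not called. In mature cells against gonad, 10 features were higher, all of Sox9, and 4 were lower (79.2% called). By gene, that was 1 higher and 4 lower. In mature against immature cells 1 feature was higher and 13 were lower (68.3% called), which was 1 gene higher and 4 lower. Between the induced groups, 11 member features were higher in TTF-ieSC, 10 of Sox9 and 1 of Nr5a1, where 7.06% of all features were higher.

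**Figure D4:**
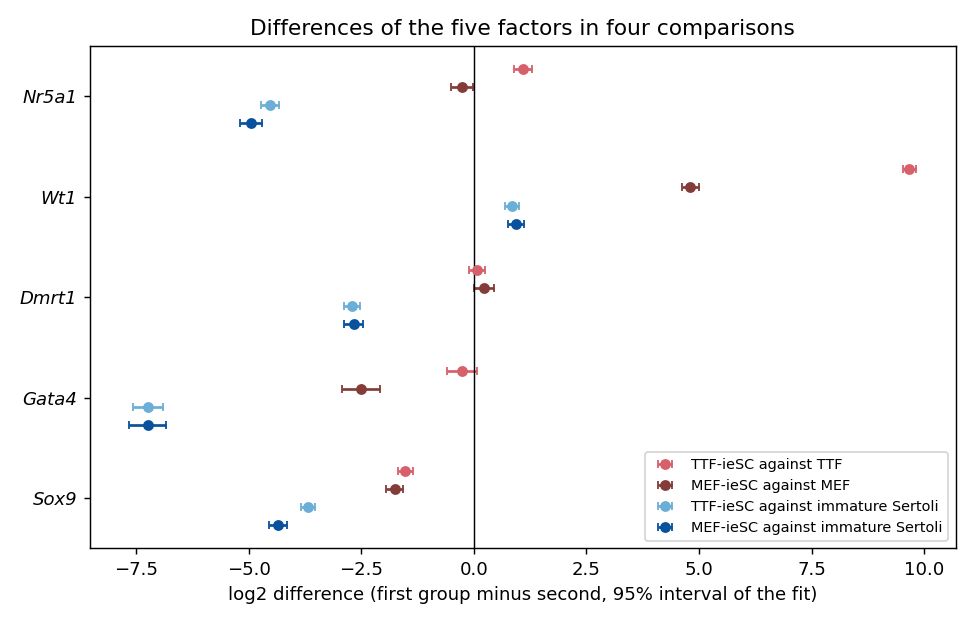
Log2 difference of each factor (horizontal axis, first group minus second) in 4 comparisons, with the 95% interval of the fit; Sox9 is shown by its brightest feature. Wt1 lies right of 0 in all 4, and the other factors lie between -7.24 and -2.67 against immature Sertoli cells.

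Across the 7 group means, Nr5a1 and Gata4 had the most similar patterns among the members (Pearson r = 0.9528), followed by Gata4 and Sox9 (0.8993) and Dmrt1 and Gata4 (0.8864). Wt1 ranged from -0.0288 with Sox9 to 0.4801 with Nr5a1. These are descriptions over 7 groups that all members share. Among 15574 other genes, the pattern most like that of Nr5a1 was that of Mmd2 (r = 0.9988), followed by Apoc1 (0.9962) and Defb19 (0.9952). The genes closest to Wt1 were Rasgrp3 (0.9937), Cenpv (0.9893) and Rangap1 (0.9883). Those closest to Dmrt1 were Pnma5 (0.9932), Taf7l (0.9915) and Rhox13 (0.9879). Those closest to Gata4 were Syce1 (0.9930), Timm10 (0.9918) and Cyp11a1 (0.9907), the enzyme that starts steroid synthesis. For Sox9 they were Neb (0.9956), Plppr4 (0.9948) and Mfge8 (0.9907), and other features of Neb and Plppr4 differed in sign in the inductions. Taking the closest of 15574 genes over 7 means by itself favours a high r. Pearson r also ignores size: group means of Mfge8 spanned 17.30 to 18.03, and those of Sox9 9.12 to 13.47. Spearman correlations were lowest for Rangap1 and Syce1, at 0.857 each.

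Genes reported as targets of each factor were then read, from lists that overlap in part. Background for these counts is 1 feature a gene, with 39.5% of genes called higher and 35.1% lower in TTF-ieSC against TTF, and 34.2% higher and 33.6% lower in MEF-ieSC against MEF. The median difference of all genes was 0.056 and 0.0054. The counts describe the lists; they do not show that a factor acted on a gene.

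Of 11 Sox9 target genes tested, 11 rose and none fell in TTF-ieSC against TTF (median 4.39), and 10 rose and 1 fell in MEF-ieSC against MEF (median 2.41). Sox9 itself fell in both. Ptgds, prostaglandin D2 synthase, had log2 signals of 6.82 and 6.88 in TTF, 8.11 and 7.99 in MEF, 18.03 and 18.14 in TTF-ieSC and 17.50 in MEF-ieSC. In native cells it was 16.88 and 16.90 in gonad, 12.65 on both immature arrays and 14.38 and 14.43 in mature Sertoli cells. It rose by 11.23 (adjusted p = 7.49e-12) and 9.45 (adjusted p = 6.43e-11), to a level above every native array. Cst9, a cystatin family gene of Sertoli cells, rose by 8.61 (adjusted p = 2.32e-06) and 7.90 (adjusted p = 2.31e-05) from fibroblast arrays that were all below the median, between 4.25 and 6.71. Amh, the hormone that removes the female ducts, rose by 0.92 (adjusted p = 0.00235) and 1.43 (adjusted p = 0.000699) to means of 7.36 in TTF-ieSC and 7.30 in MEF-ieSC, below the median. Its mean was 12.34 in gonad, 8.30 in immature and 6.59 in mature Sertoli cells, the last also below the median. Cst9 was at 16.98 and 16.85 in gonad, 7.55 and 7.29 in immature and 12.86 and 12.83 in mature Sertoli cells. In TTF-ieSC it was 13.16 and 13.20 and in MEF-ieSC 13.42, all below gonad.

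The cartilage genes of the Sox9 list also rose. Col11a2, a cartilage collagen chain, was at 7.64 and 7.74 in TTF, 7.89 and 7.93 in MEF, 14.23 and 14.27 in TTF-ieSC and 14.68 in MEF-ieSC. No native array of Col11a2 was above 7.52. It rose by 6.56 (adjusted p = 9.72e-11) and 6.77 (adjusted p = 6.53e-10). Col9a2 rose by 4.39 (adjusted p = 1.29e-10) and 3.83 (adjusted p = 1.82e-09), and the proteoglycan gene Acan by 4.39 (adjusted p = 1.10e-10) and 2.41 (adjusted p = 2.12e-08). Col9a1 rose by 6.79 and 3.54 by its brighter feature and by 0.40 and 0.31 by the other. Col2a1, the main cartilage collagen, was the exception: it rose by 3.87 from TTF (adjusted p = 3.18e-08) and fell by 4.17 from MEF (adjusted p = 1.20e-07), where it had been at 15.04 and 15.17. Of 10 cartilage markers, 9 were above the array median on every induced array, and Matn1 was not. The count was 8 in gonad, 6 in MEF and in immature Sertoli cells, and 4 in TTF and in mature Sertoli cells. Col2a1 was at 10.70 and 10.84 in gonad, against 10.58 and 10.61 in TTF-ieSC and 10.93 in MEF-ieSC.

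**Figure D5:**
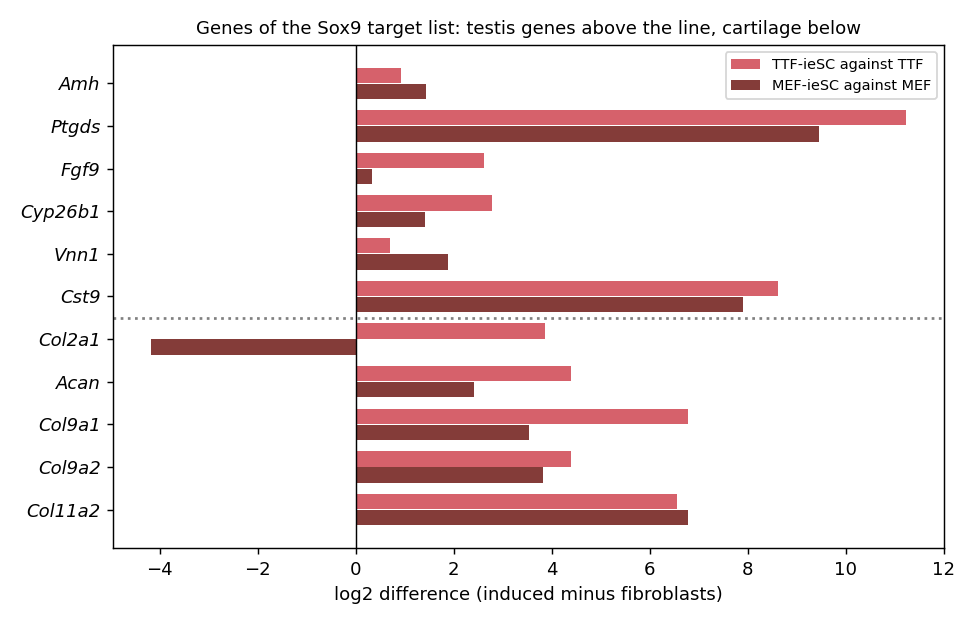
Log2 difference (horizontal axis, induced cells minus their fibroblasts) of the 11 Sox9 target genes tested, testis genes above the dotted line and cartilage genes below it. All bars point right except Col2a1 in MEF-ieSC, at -4.17; the MEF-ieSC bars rest on 1 induced array.

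Sequence was read for target genes because no promoter of the 5 factors themselves is in the table used here. Of 54 target genes, 42 had a promoter in a RefSeq table of build GRCm38.p6. The 250 bases before each start were searched on both strands. For SOX proteins the letters searched were ACAAAG, found in 16.5% of 32851 promoters of that length, and the variant ACAATG, found in 10.7%. For SF-1 they were AAGGTCA, found in 4.08%. For GATA factors they were AGATAA, found in 9.99%. For WT1 and EGR proteins, which share a site, they were GCGTGGGNG, found in 1.65%. The core searched for DMRT1, ACATTGT, was found in 2.56% and can overlap the SOX variant. Of 9 Sox9 target genes with a promoter in the table, 1 held ACAAAG and none held ACAATG. Of 9 Wt1 target genes, none held GCGTGGGNG and 1 held AAGGTCA. Of 7 Nr5a1 target genes, none held AAGGTCA. Of 10 Gata4 target genes, 1 held AGATAA, and of 10 Dmrt1 target genes, 2 held ACATTGT. A gene with several promoters counted once if any of them held a match, whereas the shares above are of single promoters. Letters of other factors were matched too, among them ACAAAG in 4 of 7 Nr5a1 target genes. AGATAA was matched in 2 of 9 Sox9 and 2 of 9 Wt1 target genes. Shown 5′ to 3′ are the largest rises of the Sox9 and Wt1 lists, chosen after their values were seen. Capitals mark the match: ACAAAG read on the other strand of Cst9, at 152 bases before its start, and AAGGTCA in Amhr2, at 231 bases before its start. Ptgds, which rose most, held no match.
Cst9, chr2:148834897-148835146, plus strand: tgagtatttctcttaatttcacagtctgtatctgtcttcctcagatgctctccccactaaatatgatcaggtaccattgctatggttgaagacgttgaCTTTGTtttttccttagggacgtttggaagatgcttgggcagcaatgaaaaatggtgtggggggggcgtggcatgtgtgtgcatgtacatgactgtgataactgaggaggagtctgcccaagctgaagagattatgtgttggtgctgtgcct
Amhr2, chr15:102445117-102445366, plus strand: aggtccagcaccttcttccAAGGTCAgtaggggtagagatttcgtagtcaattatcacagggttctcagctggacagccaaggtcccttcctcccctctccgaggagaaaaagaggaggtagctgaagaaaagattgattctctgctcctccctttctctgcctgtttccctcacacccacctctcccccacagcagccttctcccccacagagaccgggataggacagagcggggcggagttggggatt
Ptgds, chr2:25469750-25469999, minus strand: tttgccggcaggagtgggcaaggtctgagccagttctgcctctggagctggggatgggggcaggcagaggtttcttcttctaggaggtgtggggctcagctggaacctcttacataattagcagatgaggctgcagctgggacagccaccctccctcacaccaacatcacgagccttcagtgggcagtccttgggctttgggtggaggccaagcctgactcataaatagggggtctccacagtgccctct
A match is a description of the letters in this window and not a binding site.

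Of 9 Wt1 target genes tested, 3 rose, 5 fell and 1 was not called in each induction (median -0.46 in TTF-ieSC against TTF and -1.45 in MEF-ieSC against MEF). Amhr2, the receptor of anti-Müllerian hormone, had log2 signals of 8.65 and 8.66 in TTF, 9.88 and 9.92 in MEF, 16.86 and 16.96 in TTF-ieSC and 16.67 in MEF-ieSC. In native cells it was 16.01 and 16.08 in gonad and 14.23 and 14.28 in mature Sertoli cells. It rose by 8.26 (adjusted p = 1.58e-11) and 6.77 (adjusted p = 2.39e-10), above the 14.74 and 14.92 of immature Sertoli cells. Podxl, a surface protein of podocytes, rose by 5.60 (adjusted p = 6.51e-07) and 3.35 (adjusted p = 0.000108). Sulf1, which trims heparan sulfate, fell by 3.84 (adjusted p = 1.12e-09) and 5.49 (adjusted p = 1.13e-09). Of 7 podocyte and mesothelial markers on the array, 6 were above the median on every induced array, with means of 11.67 to 11.69 in TTF-ieSC and 11.27 in MEF-ieSC, against 9.40 to 9.52 in immature Sertoli cells, 9.54 to 9.62 in gonad and 9.46 to 9.55 in MEF. The same 6 were above the median on every array of MEF, gonad and immature Sertoli cells too, so this count did not set induced cells apart from these groups. Nphs1, the slit diaphragm protein that defines podocytes, was not above the median in any group. What these cartilage and mesothelial genes contribute to the counts of the target lists was not tested.

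Of 10 Nr5a1 target genes tested, 2 rose, 3 fell and 5 were not called in TTF-ieSC against TTF, and 1 rose, 4 fell and 5 were not called in MEF-ieSC against MEF (medians -0.31 in both). In gonad against MEF, 10 of 10 were higher, where 41.0% of all genes were, with a median difference of 4.61. In immature Sertoli cells against MEF, 8 were higher, where 36.2% of all genes were, and 2 were lower, where 35.5% were, with a median of 2.63. The lower genes were Cyp17a1 (-0.67) and Mc2r (-1.78). In mature Sertoli cells against TTF, 8 were higher, where 36.6% of all genes were, and 2 were not called, with a median of 3.07. The Leydig and steroid cell markers were highest in gonad, as given above. Among genes on the array, Star, Cyp11a1, Cyp17a1 and Hsd3b1 stand in both lists, and the part of such cells in these counts was not tested. Scarb1, the receptor that takes up lipoprotein cholesterol, rose by 2.30 (adjusted p = 8.48e-09) and 1.37 (adjusted p = 1.44e-06). Hsd3b1, a steroid dehydrogenase, rose by 2.14 from TTF (adjusted p = 1.33e-06) to a mean of 6.83, below the median. Cyp11a1, the side chain cleavage enzyme, fell by 4.13 from MEF (adjusted p = 0.000125), and Cyp11b1, a late steroid hydroxylase, by 2.98 (adjusted p = 1.00e-06). Star, which brings cholesterol into the mitochondrion, fell by 0.63 (adjusted p = 1.13e-05) and 1.12 (adjusted p = 1.49e-06), and its other feature gave 0.04 in TTF-ieSC against TTF.

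Of 12 Gata4 target genes tested, 8 rose, 2 fell and 2 were not called in TTF-ieSC against TTF, and 5 rose, 5 fell and 2 were not called in MEF-ieSC against MEF (medians 0.66 and -0.13). Dhh, the hedgehog ligand of Sertoli cells, rose by 6.03 (adjusted p = 3.01e-11) and 7.25 (adjusted p = 1.76e-10) to means of 15.67 and 15.87, against 15.91 in gonad, 14.30 in immature and 14.96 in mature Sertoli cells. Tnnc1, a cardiac troponin, rose by 5.09 (adjusted p = 6.97e-11) and 5.05 (adjusted p = 5.85e-10). Inhbb, an inhibin and activin subunit, fell by 5.54 (adjusted p = 1.11e-10) and 3.33 (adjusted p = 1.28e-08). Gata4 itself was below the array median in these cells.

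Of 10 Dmrt1 target genes tested, 5 rose, 2 fell and 3 were not called in TTF-ieSC against TTF, and 4 rose, 1 fell and 5 were not called in MEF-ieSC against MEF (medians 0.57 and 0.08). Rspo1, a Wnt pathway ligand of the ovary, rose by 6.68 (adjusted p = 4.03e-11) and 4.0 (adjusted p = 3.33e-09), and Fst, follistatin, fell by 4.15 (adjusted p = 5.34e-09) and 4.29 (adjusted p = 2.72e-08). Foxl2, the ovarian factor that Dmrt1 is known to hold down, was not called in either (-0.66, adjusted p = 0.0652, and -0.57, adjusted p = 0.182).

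The related genes of the same families were read next. Of 20, 19 were tested, and 10 rose, 5 fell and 4 were not called in each induction. Gata1, a blood factor that mature Sertoli cells also make, had log2 signals of 2.93 and 5.35 in TTF, 5.81 and 6.69 in MEF, 11.59 and 11.61 in TTF-ieSC and 11.93 in MEF-ieSC, against 9.81 and 9.99 in immature and 13.40 and 13.52 in mature cells. It rose by 7.45 (adjusted p = 8.02e-06) and 5.68 (adjusted p = 0.000245), from fibroblast arrays below the median that varied widely. Gata6, the relative of Gata4 in the gonad, fell by 0.51 (adjusted p = 0.00405) and 1.75 (adjusted p = 8.96e-06), and Gata3 by 1.17 (adjusted p = 3.84e-07) and 2.20 (adjusted p = 3.92e-08). Gata2 rose by 0.95 (adjusted p = 1.00e-06) and 0.50 (adjusted p = 0.000358), and Gata5 by 0.32 (adjusted p = 0.00457) and 0.49 (adjusted p = 0.00167). The GATA genes therefore moved in both directions.

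Among the SOX genes, Sox6, a partner of Sox9 in cartilage, rose by 4.28 (adjusted p = 1.61e-08) and 3.74 (adjusted p = 2.36e-07). Sox10 rose by 1.49 (adjusted p = 2.59e-07) and 2.26 (adjusted p = 1.04e-07), and Sox8, which backs up Sox9 in the testis, by 1.28 (adjusted p = 1.86e-06) and 1.20 (adjusted p = 1.57e-05). Sox5 fell by 0.82 from TTF (adjusted p = 0.000184), with another feature at 1.82, and was not called from MEF (-0.23, adjusted p = 0.180). For the relatives of Dmrt1, Dmrt2 fell by 2.94 (adjusted p = 2.02e-08) and fell by 3.97 (adjusted p = 1.96e-08) and Dmrta2 rose by 3.18 (adjusted p = 8.12e-10) and 1.81 (adjusted p = 1.62e-07). Dmrt3, the next gene to Dmrt1 on chromosome 19, rose by 0.75 in both (adjusted p = 9.68e-05 and 0.000464), with means below the array median in induced cells. Dmrtc2 rose by 0.62 from TTF (adjusted p = 0.0331) and Dmrtb1 by 0.43 from MEF (adjusted p = 0.00962), and Dmrta1 was called in neither (-0.30 and 0.64). Of the EGR genes, whose proteins share a site with WT1, Egr1 rose by 1.31 (adjusted p = 1.80e-06) and 1.24 (adjusted p = 1.44e-05), Egr4 fell by 2.15 (adjusted p = 1.92e-07) and 1.03 (adjusted p = 0.000137), and Egr2 was called in neither (-0.59 and 0.40). Nr5a2, the relative of Nr5a1, fell by 1.29 from MEF (adjusted p = 2.28e-05) by its brighter feature and differed by 1.25 in the other direction by its other feature.

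Of 17 other genes that form the gonad or work beside the factors, 13 were tested. In TTF-ieSC against TTF, 6 rose, 3 fell and 4 were not called, and in MEF-ieSC against MEF, 5 rose, 5 fell and 3 were not called. Zfpm1, a cofactor of GATA proteins, rose by 2.19 (adjusted p = 1.86e-09) and 1.16 (adjusted p = 6.55e-07). Gadd45g, a stress signalling gene that acts upstream of Sry, fell by 5.91 (adjusted p = 6.34e-11) and 6.94 (adjusted p = 2.54e-10), and Emx2, a homeobox factor of the early gonad, by 3.50 (adjusted p = 3.44e-08) and 5.01 (adjusted p = 2.28e-08). Nr0b1, which binds SF-1 and restrains it, was called in neither (-0.29, adjusted p = 0.361, and -0.16, adjusted p = 0.700), and its 10 features disagreed in sign.

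The genes next to the other members were read as for Wt1. Neil2, a DNA repair enzyme next to Gata4 on chromosome 14, had log2 signals of 9.85 and 9.89 in TTF and 5.79 and 5.58 in TTF-ieSC, and of 8.87 and 8.92 in MEF and 6.60 in MEF-ieSC. It fell by 4.19 (adjusted p = 2.56e-10) and 2.29 (adjusted p = 5.83e-08), while Mtmr9 on the other side of Gata4 differed by 0.06 (adjusted p = 0.549) and -0.60. Nr6a1, next to Nr5a1 on chromosome 2, rose by 1.04 (adjusted p = 0.000555) and 2.56 (adjusted p = 8.32e-06), and Psmb7 on its other side rose by 0.47 from TTF (adjusted p = 6.53e-05) and differed by -0.02 from MEF (adjusted p = 0.776). Kank1, on the other side of Dmrt1, differed by 0.04 from TTF (adjusted p = 0.555) and rose by 1.21 from MEF (adjusted p = 4.85e-07). Beside Sox9 on chromosome 11, the noncoding gene 2610035D17Rik rose by 0.95 (adjusted p = 2.91e-06) and 1.31 (adjusted p = 1.98e-06), while Sox9 fell, and Gm11677 rose by 0.44 (adjusted p = 0.000134) and 0.27.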

How the data were processed

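The authors' deposited values are log2 signals of 62976 features on 13 arrays, with an equal distribution on all arrays. The submitters' processing notes name limma, without its role; how features were extracted, corrected for background and floored is not given in the sources used here, so folds against dim signals depend on an unknown background. Array data have no depth, so precision is limited by how few arrays there were.

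The platform annotation gave the names, updated through a RefSeq table of GRCm38.p6: 29050 by accession, 2061 by symbol, 349 by an older symbol and 5 unchanged, with 31511 unnamed. Tested were the 25285 named features (16694 genes) whose signal passed the array median on 2 or more arrays, all 14 member features included. Group means of all 13 arrays entered 1 fit of limma 3.58.1 (R 4.3.3; lmFit, then eBayes), with 6 residual degrees of freedom and a prior of 2.12. For MEF-ieSC, with 1 array, the spread of the other groups was assumed. Tests were two-sided with Benjamini-Hochberg adjustment over the features tested. Where a gene had several features, the one with the highest mean stood for it.

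Genes named were the members, the 3 genes most like each over the group means, the 2 most changed called genes of each target list per induction, paralogs above the array median on both arrays of a group and the nearest tested gene on either side; other genes named were chosen after their values were seen. The members and lists were chosen with earlier results of these data known. Alternatives were another normalization, other filters, 1 feature a gene, a variance trend, array weights, the compared groups alone, all features, and leaving out each array; the mean of the Sox9 features was chosen after seeing the data. A check on simulated data was run after the fit, with group means and spread taken from it.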

Additional observations from a re-analysis of the deposited data

Results flagged for a closer look

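For 3 members the 2 inductions differed by a test of the difference itself (TTF-ieSC minus TTF, less MEF-ieSC minus MEF; limma, Benjamini-Hochberg over 25285 features), a test that 53.1% of all features passed. The difference was 4.87 ± 0.10 for Wt1 (adjusted p = 2.77e-08), 2.24 ± 0.23 for Gata4 (adjusted p = 8.29e-05) and 1.35 ± 0.14 for Nr5a1 (adjusted p = 7.01e-05). All 3 rest on 1 MEF-ieSC array. For Wt1 and Gata4 the end points were not separated by the test, and the fibroblasts differed by -4.96 and -2.24 (TTF minus MEF).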

How the results depend on the processing

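Of 2385 alternative values for 110 differences of single members, 2353 kept their direction and their side of the threshold, 12 lost the call, 20 gained it and 0 reversed. Many of these alternatives could change little. The deposited values already had an equal distribution on all arrays, which left little for another normalization to change. Another filter, or leaving out an array of a group outside the comparison, leaves the log2 difference itself as it was. The count of 2353 is therefore no measure of robustness by itself. With 1 feature a gene, the model was fitted again on 16658 features, and in another setting the mean of the 10 Sox9 features replaced them. Both count Sox9 once. Both gave 3 called genes in each induction, 2 in TTF-ieSC against MEF-ieSC and 4 in TTF against MEF. They gave 5 for either induced group against each native group and 4 in immature Sertoli cells against gonad. They also gave 5 in mature cells against gonad, mature against immature cells, immature cells against MEF, mature cells against TTF and gonad against MEF. Under both settings these are counts of 5 genes, not of 14 features. Of the calls near the threshold, Nr5a1 in TTF-ieSC against MEF-ieSC was lost without a filter on low values (adjusted p = 0.0504), and Wt1 in mature against immature cells was lost with those groups alone (adjusted p = 0.0629). In MEF-ieSC against MEF, a filter at the 75th percentile or a variance trend with robust fitting brought Nr5a1 (adjusted p = 0.0431 and 0.0353) and Dmrt1 (adjusted p = 0.0495 and 0.0448) past the threshold, as array weights did for Nr5a1 (adjusted p = 0.0414). The Sox9 difference between the inductions passed without either immature array (adjusted p = 0.0498). TTF-ieSC against MEF, which passed in the main test for neither Nr5a1 (0.17) nor Dmrt1 (0.18), did so without either immature array (adjusted p = 0.0344 and 0.0364). The cause of these changes was not tested. No paired analysis was made because the labels carry no replicate numbers. Those used here follow the order of the samples and only name arrays. For Wt1 and the mean of the Sox9 features, replicate 2 was higher than replicate 1 in every group with 2 arrays. This did not hold for Nr5a1, Dmrt1, Gata4 or the brightest Sox9 feature. A shift common to arrays of 1 number was not tested. Levels under the array median, such as Gata4 in induced cells and Wt1 in TTF, limit what their differences can show, and each comparison with MEF-ieSC rests on 1 array.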
